A study of Scomber scombrus with 32 samples.

Results

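The comparison described here set Mack1 p27 cultures kept in reduced serum against Mack1 p27 cultures in proliferation. Its members are the 6 libraries that the labels name for these 2 groups, 3 in serum reduction and 3 in proliferation, of 32 libraries in the series, and all 24189 genes of the count table. Mack1 is a muscle cell line of the mackerel Scomber scombrus. The labels call its cells muscle stem cells and place p27 before immortalization. For serum reduction, cultures had reached confluence and were then fed regularly with L-15 medium holding 2.5% fetal bovine serum, with no FGF2 listed. For proliferation, cultures were in growth medium, L-15 with 20% fetal bovine serum and 1 ng/mL of recombinant human FGF2. Density, serum and FGF2 thus changed together and cannot be told apart. All 6 libraries carry the same batch label and were made from poly(A) RNA of whole cultures without strand information, so reads of a gene and of an antisense partner cannot be told apart, and recent fish duplicates could share reads. The labels speak of experimental replicates and do not say whether these were separate cultures. P-values here thus measure only the spread between libraries of a group. That spread, estimated over all 24 Mack1 libraries, may be technical. Short comparisons with 4 other Mack1 groups of 3 libraries each, p27 serum starvation (confluent, with feeding stopped), p27 lipid loading (confluent, growth medium with insulin, IBMX, dexamethasone and a lipid mixture), p77 serum reduction and p77 proliferation (both after immortalization), close the account.

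As background, muscle precursor cells divide while serum growth factors and FGF are plentiful. When these are withdrawn from a dense culture, the precursors can leave the cell cycle, switch on myogenin and MEF2 factors, fuse into multinucleated myotubes and assemble sarcomeres from muscle forms of actin, myosin and their partners. Many of these proteins have a sister gene used by dividing cells, and fish often carry further duplicates, so a change of state can show as an exchange between members of a family. Roles given below are those known from mammals and zebrafish.

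Total counts ran from 29740939 to 32012966 in serum reduction and from 21841044 to 23277969 in proliferation, and between 15293 and 16992 genes had a count in a library. Ribosomal RNA genes held 0.719 to 0.901% of counts in serum reduction and 0.452 to 1.07% in proliferation. Levels are given as CPM, the usual counts scaled to a common library size, with totals adjusted by the trimmed mean of M values (TMM). They are not divided by gene length, and compare 1 gene between groups, not genes with each other. Of the markers chosen for muscle precursors, myod1, cdh15, met and desma were measured in both groups. The paired box gene pax7a, a classic satellite cell marker, stayed at or below 0.560 CPM in every library, and myf5, another early factor of the lineage, reached no more than 0.315 CPM. A related paired box gene, pax3b, is named here after its values were seen. It was at 57.9, 51.3 and 55.9 CPM in serum reduction, against 112, 111 and 120 CPM in proliferation. Desma was far higher in serum reduction, with means of 4142 CPM there and 19.3 CPM in proliferation. The muscle part of the label thus had measured markers, while pax7a and myf5 were near 0 in both groups. As these are bulk cultures, fewer cells of a type and less RNA per cell cannot be told apart.

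A gene was called where its adjusted p was under 0.05 in edgeR's quasi-likelihood test, fitted over all 24 Mack1 libraries with Benjamini-Hochberg adjustment across 15683 genes. Serum reduction moved 61.7% of them, 5085 (32.4%) upward and 4589 (29.3%) downward. At least 2-fold changes were found in 3025 genes upward (19.3%) and 2035 downward (13%), and the median log2 fold change over all genes was 0.05. These shares are the background against which each gene list below is read. Of the tested genes, 587 had no count in the 3 proliferation libraries and 122 had none in the 3 serum reduction libraries, whose totals were larger. "Rose" and "fell" below are used of called genes. Values with ±, and the sizes of rises and falls, are log2 fold changes of serum reduction over proliferation. After the sign stands an approximate standard error, the size of the log2 fold change divided by the square root of the test's F statistic. It is rough for genes near 0 in a group. Groups that do not overlap are mentioned below only to describe single genes. With 61.7% of genes called, separate groups do not set a gene apart, and their share over all genes is not given. The largest adjusted p among the genes so named was 0.0273.

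**Figure D1:**
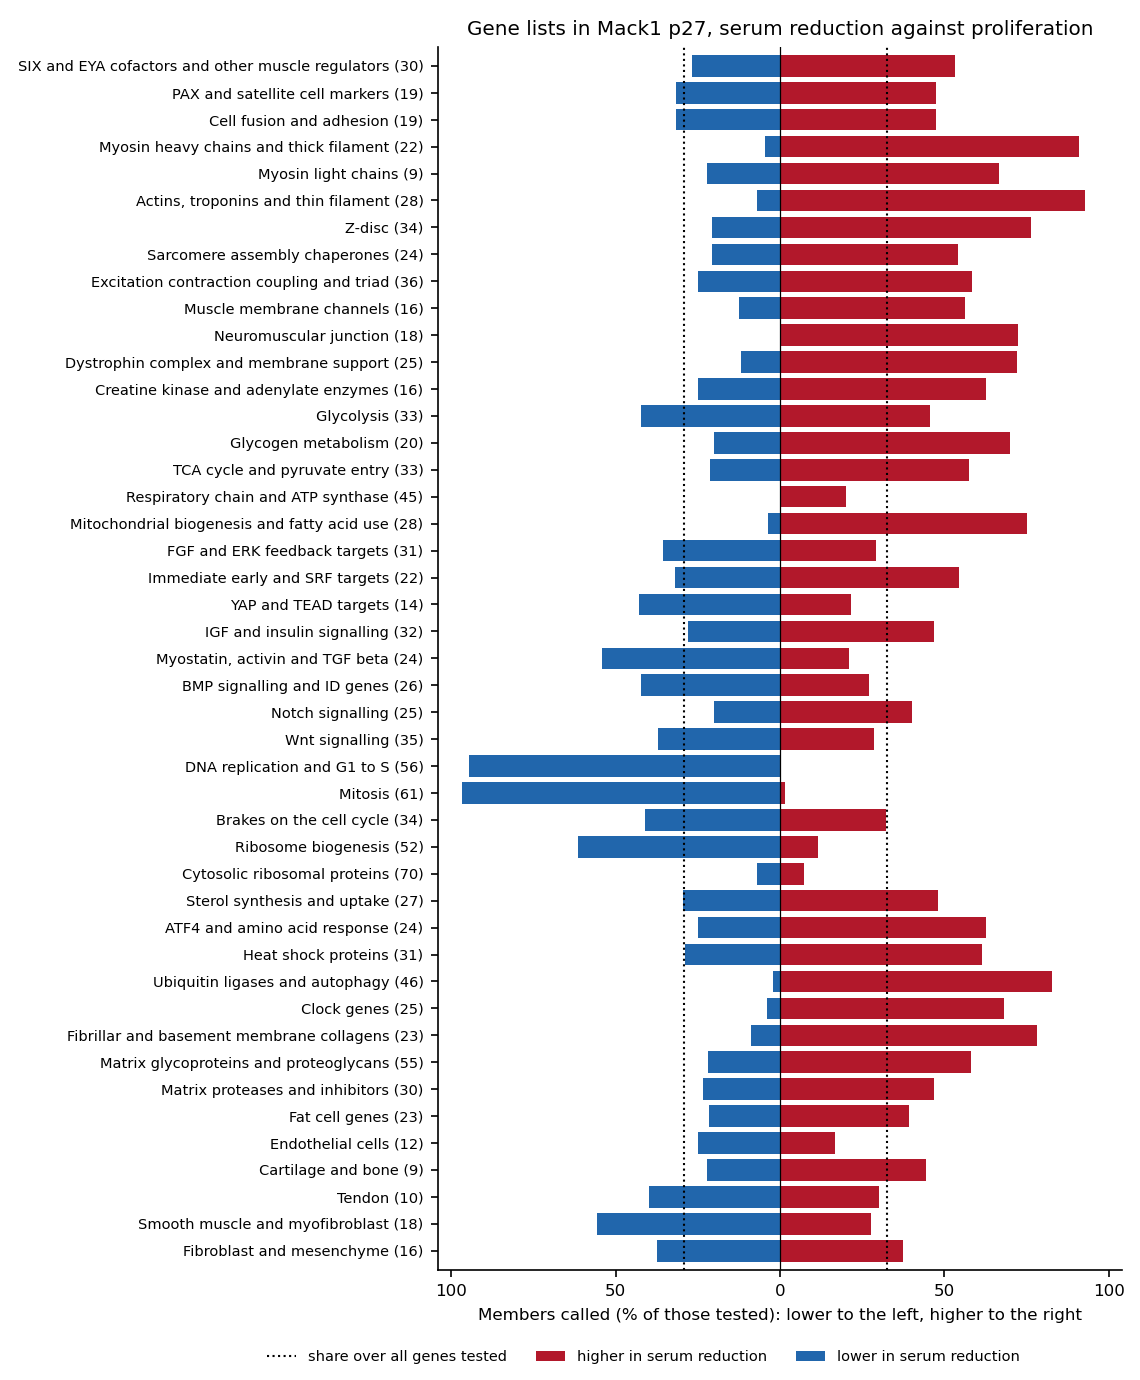
Share of the tested members of each gene list called higher (red, to the right) or lower (blue, to the left) in p27 serum reduction than in proliferation, as a percent, with the number tested in brackets for lists of at least 9 tested genes. Dotted lines mark the shares over all 15683 genes, 32.4% higher and 29.3% lower; the thick and thin filament lists lie almost wholly to the right and the replication and mitosis lists almost wholly to the left.

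Of the muscle transcription factors, myogenin and the MEF2 genes rose, myod1 had no called change and myf5, near 0 in both groups, was called higher. Of 6 tested myogenic and MEF2 factors 5 rose and none fell, with a median log2 fold change of 2.57, or 1.28 with a gene absent from a group set at a floor of 3 counts over that group. At an unadjusted p under 0.05 edgeR found 0 lower, and DESeq2 called 0 lower. Myod1, which commits cells to muscle, was at 31.8, 32.8 and 30.7 CPM in serum reduction, against 29.4, 35.1 and 32.1 CPM in proliferation (log2 fold change -0.02 ± 0.09, adjusted p = 0.863 in edgeR's test). The groups overlapped, and no change was called. Myog, encoding myogenin, which drives terminal differentiation, was at 200.0, 211 and 204 CPM in serum reduction, against 2.15, 1.83 and 1.68 CPM in proliferation (log2 fold change 6.76 ± 0.25). Every serum reduction library lay far above every proliferation library. The MEF2 factor mef2aa, a partner of the myogenic factors, was at 195, 224 and 231 CPM in serum reduction, against 12.5, 13.4 and 11.9 CPM in proliferation (log2 fold change 4.10 ± 0.11), while mef2cb rose by 1.04 and mef2d by 0.48 on the log2 scale. These MEF2 genes rose by different amounts, from groups that did not overlap, and the call for mef2d was lost without serum reduction replicate 3. The fifth gene called higher, myf5, was at 0.315, 0.0653 and 0 CPM in serum reduction and had no count in proliferation, at least 2.87-fold higher against the floor (adjusted p = 0.0177 in edgeR's test). It rested on 11 counts, and its call was lost without serum reduction replicate 1.

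Cofactors divided in both directions, with 16 of 30 rising and 8 falling (median 0.38). Without serum reduction replicate 3, or without proliferation replicate 2, the number falling was 5. Risers included smarcd3b, a muscle subunit of the SWI/SNF chromatin remodeller, at 75.0, 72.7 and 75.7 CPM in serum reduction, against 2.27, 1.92 and 1.50 CPM in proliferation (log2 fold change 5.29 ± 0.13). The homeobox factor six4a was at 19.8, 24.9 and 26.1 CPM in serum reduction, against 0.515, 0.480 and 0.727 CPM in proliferation (log2 fold change 5.35 ± 0.24). Neither gene had overlapping groups. Hdac9b, a class IIa histone deacetylase known in mammals to repress MEF2, rose by 5.17 ± 0.27, and vgll2b, a cofactor of TEAD factors in skeletal muscle, by 4.34 ± 0.36 on the log2 scale. Serum response factor srfb and its coactivator mrtfab rose by 1.36 and 1.58, whereas a second coactivator, mrtfbb, was at 5.84, 7.64 and 6.92 CPM in serum reduction, against 38.2, 47.7 and 43.1 CPM in proliferation (log2 fold change -2.66 ± 0.23). The myocardin-related coactivators mrtfab and mrtfbb therefore moved in opposite directions. The TEAD factor tead1b and the TEAD cofactor vgll3 fell, with log2 fold changes of -1.01 and -1.32.

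Genes used to mark satellite cells did not move as a block: 9 of 19 rose and 6 fell. M-cadherin cdh15, an adhesion protein of the muscle lineage, was at 603, 616 and 585 CPM in serum reduction, against 96.4, 98.2 and 87.5 CPM in proliferation (log2 fold change 2.68 ± 0.07), and the engulfment receptor megf10 rose by 4.02 ± 0.34. The receptor fgfr4 was at 7.31, 4.31 and 4.94 CPM in serum reduction, against 66.2, 69.2 and 64.1 CPM in proliferation (log2 fold change -3.59 ± 0.19). Here the proliferation libraries were the high ones. The heparan sulfate proteoglycan sdc4, the homeobox gene msx1a and the signalling inhibitor spry1 also fell, with log2 fold changes of -1.97, -1.76 and -1.08.

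Most genes of the contractile apparatus rose, and several of their relatives in the general cytoskeleton fell. In the thick filament list 20 of 22 tested genes rose, in the thin filament list 26 of 28 and in the Z-disc list 26 of 34, against 32.4% over all genes. Median log2 fold changes were 6.97, 6.26 and 3.91, or 6.64, 6.03 and 3.91 with absent genes at the same floor. Summed over the list, thin filament genes held 18241, 21934 and 23970.4 CPM in serum reduction, against 1655, 1659 and 1616 CPM in proliferation. Thick filament genes held 5652, 6597 and 7191 CPM, against 121, 143 and 114 CPM. In both sums serum reduction replicate 3 was the highest library and replicate 1 the lowest of its group, a spread far smaller than the gap between groups. Of 9 tested myosin light chains 6 rose, among them myl1 of the fast fibre (9.08 ± 0.31), and 2 fell, the general light chains myl6 and myl9b (-0.65 ± 0.19 and -0.87 ± 0.07). Other light chains are not named here, so these genes do not show that general forms fell as a class.

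Families whose members serve either muscle or other cells showed the exchange gene by gene. These pairs were set side by side after their values were seen. Alpha-actinin actn3b, a Z-disc crosslinker of fast muscle, was at 1584, 1973 and 2220.2 CPM in serum reduction, against 1.03, 1.96 and 0.727 CPM in proliferation (log2 fold change 10.59 ± 0.22), and actn2b rose by 6.58 ± 0.18. Actn1, the actinin of stress fibres and adhesions, was at 169, 143 and 136 CPM in serum reduction, against 977, 935 and 962 CPM in proliferation (log2 fold change -2.68 ± 0.14), and actn4 fell with a log2 fold change of -1.70 ± 0.11. All 4 actinins had groups that did not overlap, which describes these genes alone. Tropomyosin tpm2 rose by 9.42 ± 0.24 while tpm4a, a form common in non-muscle cells, was at 365, 300.2 and 309 CPM in serum reduction, against 1123, 1002 and 1077 CPM in proliferation (log2 fold change -1.72 ± 0.08). The pointed-end cap tmod4 rose by 9.83 ± 0.29, and its relative tmod1, not taken here as a non-muscle form, had a log2 fold change of -0.83 ± 0.09.

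Actins followed the same division. Skeletal actin acta1b was at 9354, 11718 and 12992 CPM in serum reduction, against 13.1, 22.1 and 12.9 CPM in proliferation (log2 fold change 9.47 ± 0.33), and actc1b at 929.7, 1057 and 1143 CPM in serum reduction, against 40.7, 42.8 and 36.7 CPM in proliferation (log2 fold change 4.70 ± 0.13). Cytoplasmic actin actb2 was at 6358, 5264 and 5617 CPM in serum reduction, against 15707, 16222 and 14898 CPM in proliferation (log2 fold change -1.44 ± 0.07), and actb1 at 2021, 1643 and 1819.6 CPM in serum reduction, against 8729, 8342 and 8444 CPM in proliferation (log2 fold change -2.22 ± 0.10). Actb2 and actb1 had the largest falls in mean CPM of all genes, and acta1b the second largest rise. Calponin cnn2, which binds actin in stress fibres, was at 316, 241 and 278 CPM in serum reduction, against 2124, 2070.2 and 2017 CPM in proliferation (log2 fold change -2.90 ± 0.09). Other actin-associated genes that fell were the LIM protein csrp1b (-2.64), pdlim1 (-1.67), the smoothelin smtnb (-3.07) and filamin flna (-1.20), all as log2 fold changes. The smooth muscle actin acta2 did not follow them and rose by 1.09 ± 0.18. Actin genes are similar in sequence, and reads could be shared between them.

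Assembly factors included a muscle form that rose beside a general form that fell. The myosin chaperone unc45b was at 2957, 3544 and 3830.0 CPM in serum reduction, against 16.7, 18.1 and 17.1 CPM in proliferation (log2 fold change 7.64 ± 0.15), and unc45a, its general relative, at 36.4, 31.6 and 30.2 CPM in serum reduction, against 89.7, 87.6 and 97.4 CPM in proliferation (log2 fold change -1.48 ± 0.10). The muscle heat shock protein 90 gene hsp90aa1.1 was at 4812, 5903 and 6159.8 CPM in serum reduction, against 12.1, 24.2 and 10.9 CPM in proliferation, while hsp90aa1.2 had a log2 fold change of -0.73 ± 0.09. The methyltransferase smyd1b, needed for sarcomere assembly in zebrafish, rose by 5.01 ± 0.12. As a whole the chaperone list was mixed, with 13 of 24 rising, 5 falling (8 with library totals alone) and a median of 0.26.

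**Figure D2:**
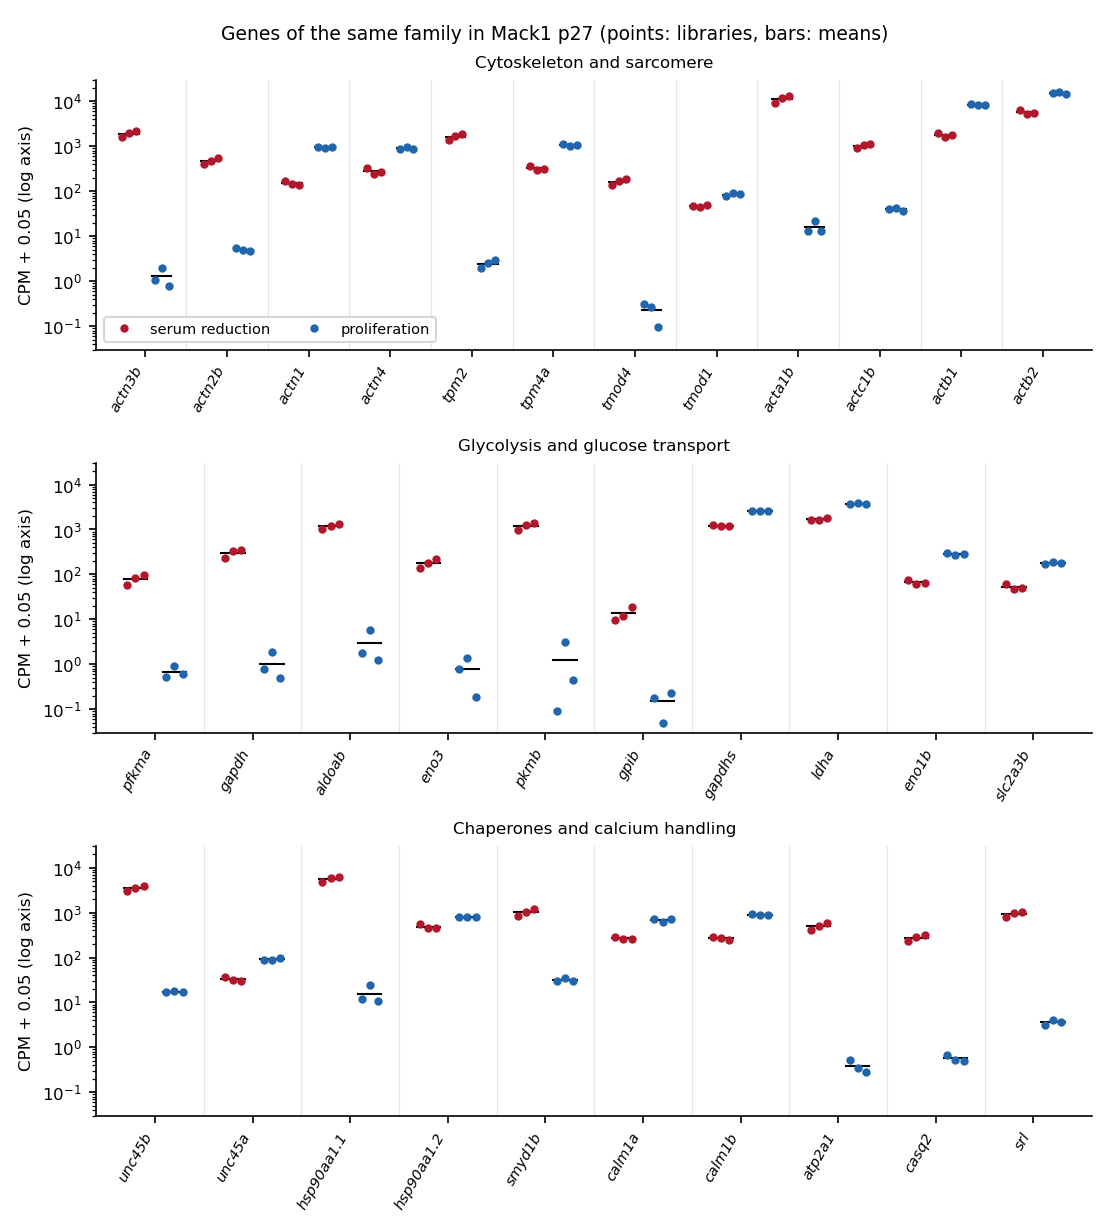
CPM plus 0.05 on a log axis for members of the same families in p27 serum reduction (red, left of each pair) and proliferation (blue), with 1 point per library and a black bar at the mean. Actn3b, actn2b, tpm2, acta1b, pfkma, pkmb and unc45b are higher in serum reduction, and actn1, actn4, tpm4a, actb1, actb2, ldha, eno1b and unc45a are higher in proliferation; heights of different genes are not comparable, since CPM is not divided by length.

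Membrane and fusion genes were less uniform. In the dystrophin and membrane support list 18 of 25 rose and 3 fell (median 1.20). Dystrophin itself, dmd, which ties the cytoskeleton to the matrix, was at 151, 182 and 184 CPM in serum reduction, against 0.901, 2.05 and 1.86 CPM in proliferation (log2 fold change 6.75 ± 0.21), and dysf, a membrane repair protein, rose by 4.92 ± 0.18. The falls were those of syntrophin sntb2, the scramblase-family gene ano5b and sarcoglycan sgcb, with log2 fold changes of -1.41, -1.44 and -0.64. In the fusion and adhesion list 9 of 19 rose and 6 fell. Jam2a, a cell surface partner in zebrafish myoblast fusion, was at 337, 355 and 302 CPM in serum reduction, against 53.2, 53.3 and 49.8 CPM in proliferation (log2 fold change 2.67 ± 0.11), and the muscle membrane protein tmem182a rose by 9.05 ± 0.26. The nephrin-like adhesion gene kirrel1b and the fusion-linked exchange factor dock1 fell, with log2 fold changes of -2.64 and -1.15.

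Genes of calcium release and reuptake were among the largest risers, and calmodulin genes fell. Of 36 excitation-contraction coupling genes 21 rose and 9 fell, with a median of 2.72, or 2.15 with absent genes at the floor. The calcium pump atp2a1 was at 409.5, 513 and 579 CPM in serum reduction, against 0.472, 0.305 and 0.227 CPM in proliferation (log2 fold change 10.52 ± 0.23), and calsequestrin casq2, which stores calcium, rose by 9.03 ± 0.21. Junctophilin jph2, which holds the triad membranes together, was at 55.3, 64.9 and 72.2 CPM in serum reduction, against 0.0429, 0.305 and 0.0908 CPM in proliferation (log2 fold change 8.73 ± 0.24). Calmodulin genes calm1b and calm1a had log2 fold changes of -1.76 ± 0.10 and -1.37 ± 0.09. Calm1b was at 284, 265 and 250.0 CPM in serum reduction, against 914, 894 and 902 CPM in proliferation, with no overlap of the groups. Among membrane channels 9 of 16 rose, led by the sodium pump subunit atp1a2a (7.79 ± 0.18), and the sodium channel scn4ab rose by 3.36 ± 0.22.

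At the neuromuscular junction, the synapse between nerve and muscle, 13 of 18 genes rose and none fell (median 1.28), with 0 lower at an unadjusted p under 0.05 in edgeR and 0 called lower by DESeq2. All 5 subunit genes of the muscle acetylcholine receptor that were tested rose, by unequal amounts. The beta subunit chrnb1 was at 39.2, 52.5 and 55.9 CPM in serum reduction, against 0.129, 0.480 and 0.227 CPM in proliferation (log2 fold change 7.44 ± 0.24). The gamma subunit chrng, which in mammals belongs to the embryonic receptor, was at 194, 243 and 277 CPM in serum reduction, against 35.2, 37.1 and 29.8 CPM in proliferation (log2 fold change 2.80 ± 0.13). The epsilon subunit chrne, the adult form in mammals, was at 16.7, 17.5 and 14.4 CPM in serum reduction, against 0.0429, 0.0873 and 0 CPM in proliferation, from 3 counts in all in proliferation, a ratio of 369.9 with a 95% counting interval of 126 to 1796. The alpha subunit chrna1, already at 142, 153 and 129.9 CPM in proliferation, reached 312, 378 and 414 CPM in serum reduction. The delta subunit chrnd rose by 3.09 ± 0.15 and the adaptor dok7b by 5.75 ± 0.49.

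Some families of energy genes also had members that moved in opposite directions. Creatine kinase and adenylate genes held 9528, 11626 and 12892 CPM in serum reduction, against 554, 562 and 510.4 CPM in proliferation, with 10 of 16 rising and 4 falling. Muscle creatine kinase ckma, which buffers ATP, was at 5905, 7448 and 8141 CPM in serum reduction, against 4.38, 16.8 and 5.95 CPM in proliferation (log2 fold change 9.63 ± 0.37). Proliferation replicate 2 was the highest of its group for ckma and for pkmb, and its values remained far below those in serum reduction. Ak1, which recycles adenine nucleotides, rose by 8.50 ± 0.29 while ak4 had a log2 fold change of -0.99.

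The summed glycolysis list was lower in serum reduction, at 11567, 12007 and 12712 CPM, against 14805, 15543 and 14764 CPM in proliferation, although 15 of its 33 genes rose and 14 fell (median 0.14). Changes in mean CPM were -2055 for ldha and -1416 for gapdhs, both described below. The sum thus leaned on a few abundant genes and does not speak for the other members. With library totals alone the counts were 15 and 16, so which direction holds the majority depends on the scaling. Among muscle forms, phosphofructokinase pfkma was at 57.6, 84.2 and 95.6 CPM in serum reduction, against 0.472, 0.873 and 0.545 CPM in proliferation (log2 fold change 6.96 ± 0.21), and pyruvate kinase pkmb at 968, 1241 and 1402 CPM in serum reduction, against 0.0429, 3.10 and 0.409 CPM in proliferation (log2 fold change 9.98 ± 0.41). Aldolase aldoab, enolase eno3 and glucose phosphate isomerase gpib rose by 8.66 ± 0.32, 7.95 ± 0.33 and 6.98 ± 0.39. Other genes of the glycolysis list fell, among them ldha, not taken here as a non-muscle form. Lactate dehydrogenase ldha was at 1630.0, 1616 and 1775 CPM in serum reduction, against 3639.9, 3868 and 3677 CPM in proliferation (log2 fold change -1.16 ± 0.07), and enolase eno1b at 75.4, 61.7 and 64.9 CPM in serum reduction, against 303, 277 and 287 CPM in proliferation (log2 fold change -2.10 ± 0.15). Of the glyceraldehyde phosphate dehydrogenases, gapdh was at 233, 325 and 348 CPM in serum reduction, against 0.730, 1.79 and 0.454 CPM in proliferation, and gapdhs at 1233, 1172 and 1175 CPM in serum reduction, against 2626, 2633 and 2568 CPM in proliferation. The symbol gapdh thus named a gene that rose, and gapdhs one that fell. The glucose transporter slc2a3b fell, with a log2 fold change of -1.75 ± 0.10.

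Glycogen genes rose in 14 of 20 cases and fell in 4 (median 2.54). The glycogen-binding protein stbd1 was at 52.4, 68.2 and 72.0 CPM in serum reduction and had no count in proliferation, at least 1460.4-fold higher against the floor of 3 counts over the group. Glycogen synthase gys1 was at 72.0, 81.7 and 87.3 CPM in serum reduction, against 13.8, 9.86 and 11.9 CPM in proliferation (log2 fold change 2.76 ± 0.12), and the branching enzyme gbe1b rose by 2.44 ± 0.11. Ugp2b, which makes UDP-glucose, and the kinase gsk3ba, which inhibits the synthase, fell, with log2 fold changes of -1.45 and -0.92. In the citric acid cycle list 19 of 33 rose and 7 fell, with mitochondrial isocitrate dehydrogenase idh2 at 968, 1125 and 1234 CPM in serum reduction, against 133, 134 and 127 CPM in proliferation (log2 fold change 3.08 ± 0.09) and cytosolic idh1 lower (-1.16 ± 0.10). The pyruvate dehydrogenase kinase pdk4 rose by 4.77 ± 0.27, and pdk2a was at 16.8, 17.9 and 19.4 CPM in serum reduction with no count in proliferation, at least 409.9-fold higher.

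Respiratory chain genes moved little. Of 45 tested, 9 rose, none fell and 36 were not called, and the median log2 fold change was 0.12 against 0.05 over all genes. In the same edgeR test 0 were lower at an unadjusted p under 0.05, and DESeq2 called 0 lower. The ATP synthase subunit atp5f1b was at 2342, 2536 and 2691 CPM in serum reduction, against 1895, 1877 and 1881 CPM in proliferation (log2 fold change 0.42 ± 0.07). The number rising ranged from 6 with library totals alone to 16 with the compared groups alone in the fit. Genes for mitochondrial biogenesis and fatty acid use rose in 21 of 28 cases, and 1 fell. Ppargc1a, a coactivator of mitochondrial genes, was at 19.8, 20.3 and 19.7 CPM in serum reduction, against 0, 0 and 0.0454 CPM in proliferation, from 1 count in all in proliferation, a ratio of 1361 with a 95% counting interval of 244 to 53796. Lipoprotein lipase lpla was at 510.1, 470.3 and 429 CPM in serum reduction, against 15.5, 25.3 and 17.7 CPM in proliferation (log2 fold change 4.59 ± 0.13), and the fatty acid carrier fabp3 rose by 1.40 ± 0.07. The relative ppargc1b was the 1 gene of the list called lower, at 10.7, 9.24 and 8.85 CPM in serum reduction, against 10.6, 16.5 and 14.4 CPM in proliferation (log2 fold change -0.52 ± 0.20), its groups overlapped, and the call was lost without serum reduction replicate 2 or 3 and without proliferation replicate 2 or 3.

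**Figure D3:**
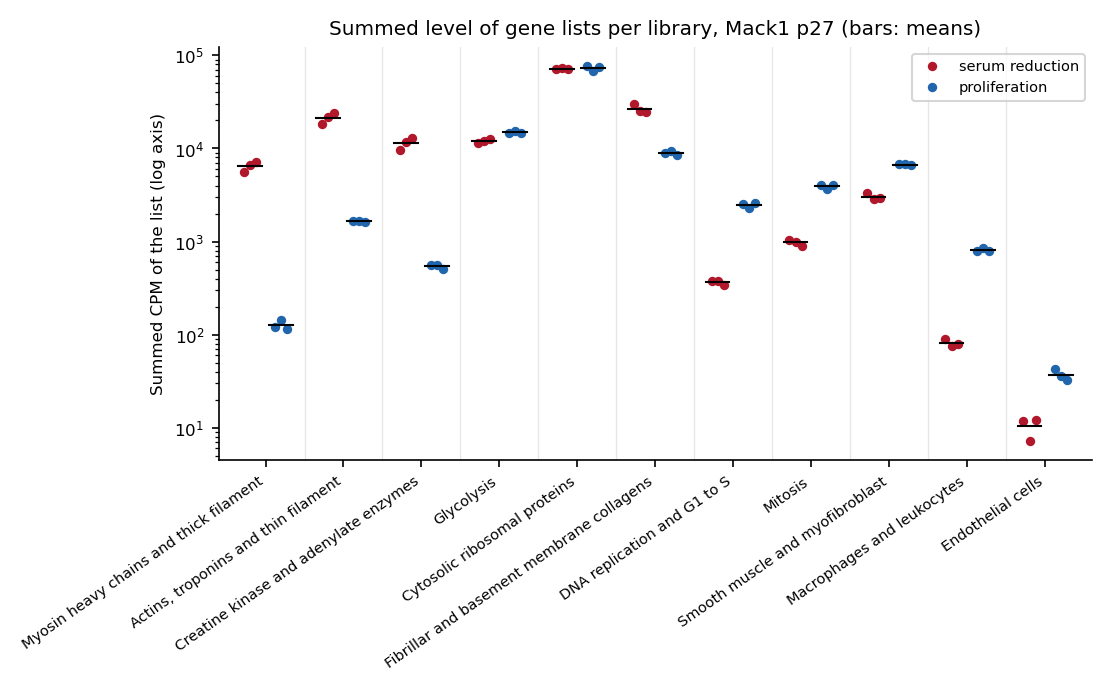
Summed CPM of the genes of 11 lists on a log axis in each p27 library, serum reduction in red on the left and proliferation in blue on the right, with black bars at the means. The lists leave out genes with a locus number alone, and a sum can lean on a few abundant genes, as for glycolysis and macrophages. Thick filament, thin filament, creatine kinase and collagen sums stand above in serum reduction, glycolysis, replication, mitosis, smooth muscle, macrophage and endothelial sums stand above in proliferation, and the ribosomal protein sums overlap.

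Members of the FGF and ERK list moved in both directions, while several immediate early genes rose. In the FGF and ERK list, which holds receptors, ligands and genes the pathway is known to induce, 9 of 31 genes rose and 11 fell (median -0.10), shares near the background of 32.4% and 29.3%. The inhibitor spry4 was at 13.0, 9.77 and 10.5 CPM in serum reduction, against 128, 131 and 143 CPM in proliferation (log2 fold change -3.59 ± 0.14), and the receptors fgfr1a and fgfr2 fell, with log2 fold changes of -1.66 ± 0.11 and -2.45 ± 0.21. The ERK phosphatase dusp6 was at 135, 116 and 112 CPM in serum reduction, against 216, 211 and 208 CPM in proliferation (log2 fold change -0.81 ± 0.08), and spred1 fell with it (-1.49 ± 0.13). The risers of this list included the growth regulator myca, at 3.53, 3.30 and 3.65 CPM in serum reduction, against 0, 0.0873 and 0 CPM in proliferation, from 2 counts in all in proliferation, a ratio of 119 with a 95% counting interval of 32.7 to 987. The ligand fgf10a was at 0.805, 1.47 and 0.824 CPM in serum reduction, against 0, 0.0436 and 0 CPM in proliferation, from 1 count in proliferation, a ratio of 71.3 with a 95% counting interval of 12.5 to 2846. The immediate early factor egr1 was at 974, 886 and 887 CPM in serum reduction, against 118, 176 and 129 CPM in proliferation (log2 fold change 2.70 ± 0.13), and fosab at 235, 213 and 229 CPM in serum reduction, against 10.0, 14.6 and 10.4 CPM in proliferation (log2 fold change 4.27 ± 0.15). Jun, atf3 and ier2a rose by 2.22 ± 0.24, 1.62 ± 0.10 and 1.02 ± 0.18. In the immediate early and SRF list 12 of 22 rose and 7 fell, the falls including cnn2, flna, myl9b and tagln (-0.52 ± 0.07).

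In the myostatin, activin and TGF beta list 5 of 24 genes rose and 13 fell (median -0.37). Without proliferation replicate 3 the number rising was 3. The ligand tgfb1a was at 82.7, 76.0 and 70.9 CPM in serum reduction, against 374, 393 and 390.2 CPM in proliferation (log2 fold change -2.33 ± 0.10), while tgfb2 rose by 2.34 ± 0.29. The ligand genes of the family thus moved in opposite directions. Among genes that TGF beta is known to induce, skila and the inhibitory SMAD smad7 fell, with log2 fold changes of -2.42 ± 0.10 and -1.95 ± 0.24. The activin-binding genes fsta and fstl3 fell as well (-1.12 and -2.33), as did the receptor tgfbr1b (-1.30).

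BMP genes fell in 11 of 26 cases and rose in 7 (median -0.52). The falls covered ligands, antagonists and signal transducers. The ligand bmp8a was at 1.33, 1.01 and 1.54 CPM in serum reduction, against 23.5, 23.3 and 26.1 CPM in proliferation (log2 fold change -4.23 ± 0.30), and bmp7b had a log2 fold change of -4.61 ± 0.33. The secreted antagonist grem2a was at 20.0, 17.3 and 18.7 CPM in serum reduction, against 204, 198 and 211 CPM in proliferation (log2 fold change -3.45 ± 0.21), and the antagonist nog2 at 10.9, 4.54 and 5.91 CPM in serum reduction, against 91.2, 86.5 and 84.5 CPM in proliferation (log2 fold change -3.62 ± 0.24). The inhibitory SMAD smad6b and the transducer smad9 fell as well (-3.30 ± 0.16 and -2.37 ± 0.25). The receptor bmpr1ba rose (6.47 ± 0.24), as did the transducer smad1 (0.82 ± 0.09) and id3, an inhibitor of basic helix-loop-helix factors (2.00 ± 0.30).

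Among the Wnt genes with the smallest p, ligands fell and secreted antagonists rose, while the list as a whole had 10 of 35 higher and 13 lower (median -0.08). Wnt1 was at 4.76, 4.02 and 4.26 CPM in serum reduction, against 78.4, 89.8 and 82.2 CPM in proliferation (log2 fold change -4.26 ± 0.19), and its neighbour on the chromosome in the RefSeq gene order, wnt10b, at 8.67, 6.70 and 5.98 CPM in serum reduction, against 66.1, 64.8 and 62.8 CPM in proliferation (log2 fold change -3.18 ± 0.15). Both ligand genes were low in all 3 serum reduction libraries. Wnt7aa and wnt7bb had log2 fold changes of -3.01 ± 0.22 and -2.66 ± 0.24, and axin2, a target and inhibitor of the canonical pathway, was at 22.6, 23.2 and 25.4 CPM in serum reduction, against 80.4, 80.5 and 84.1 CPM in proliferation (log2 fold change -1.78 ± 0.09). Frzb, a secreted protein that binds Wnt ligands, was at 444, 341 and 352 CPM in serum reduction, against 38.9, 49.9 and 38.8 CPM in proliferation (log2 fold change 3.16 ± 0.13), and sfrp5, of the same family, rose by 2.46 ± 0.25. The receptor fzd4 rose by 6.36 ± 0.32.

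Notch targets did not share a direction. Hey1 was at 190.2, 168 and 161 CPM in serum reduction, against 15.3, 16.7 and 14.2 CPM in proliferation (log2 fold change 3.49 ± 0.15), and her9 rose by 2.17 ± 0.18. Heyl was at 0.210, 0.0980 and 0.287 CPM in serum reduction, against 10.6, 8.07 and 8.77 CPM in proliferation (log2 fold change -5.51 ± 0.47), and the ligand jag1b at 48.7, 39.5 and 47.0 CPM in serum reduction, against 229, 257 and 260.0 CPM in proliferation (log2 fold change -2.47 ± 0.14). Thus 2 target genes rose while another target and a ligand fell, each with separate groups. Of 25 genes in the list 10 rose and 5 fell. Numbl, an inhibitor of Notch, rose by 3.56 ± 0.25 and lfng, which modifies the receptors, fell (-2.02 ± 0.33). Of the YAP and TEAD list 3 of 14 rose and 6 fell: yap1 itself was at 228, 236 and 209.9 CPM in serum reduction, against 110.0, 106 and 98.4 CPM in proliferation (log2 fold change 1.10 ± 0.07), while the target genes ccn1, ccn2a and crim1 fell, with log2 fold changes of -0.70, -0.56 and -1.60.

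In the IGF and insulin list 15 of 32 rose and 9 fell (median 0.52). Sestrin sesn1, an inhibitor of the mTOR pathway, was at 120.3, 129 and 115 CPM in serum reduction, against 21.6, 21.6 and 20.2 CPM in proliferation (log2 fold change 2.52 ± 0.09). The forkhead factor foxo3b was at 73.1, 69.1 and 66.9 CPM in serum reduction, against 9.49, 9.69 and 7.90 CPM in proliferation (log2 fold change 2.95 ± 0.13), whereas foxo1a was at 19.5, 20.2 and 21.6 CPM in serum reduction, against 73.3, 80.2 and 75.8 CPM in proliferation (log2 fold change -1.90 ± 0.13). The 2 forkhead genes moved oppositely. The ligand igf2b rose by 3.44 ± 0.25, the mTOR inhibitor tsc2 by 1.01 ± 0.08, and the kinase gene rps6kb1a fell (-0.89 ± 0.12).

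**Figure D4:**
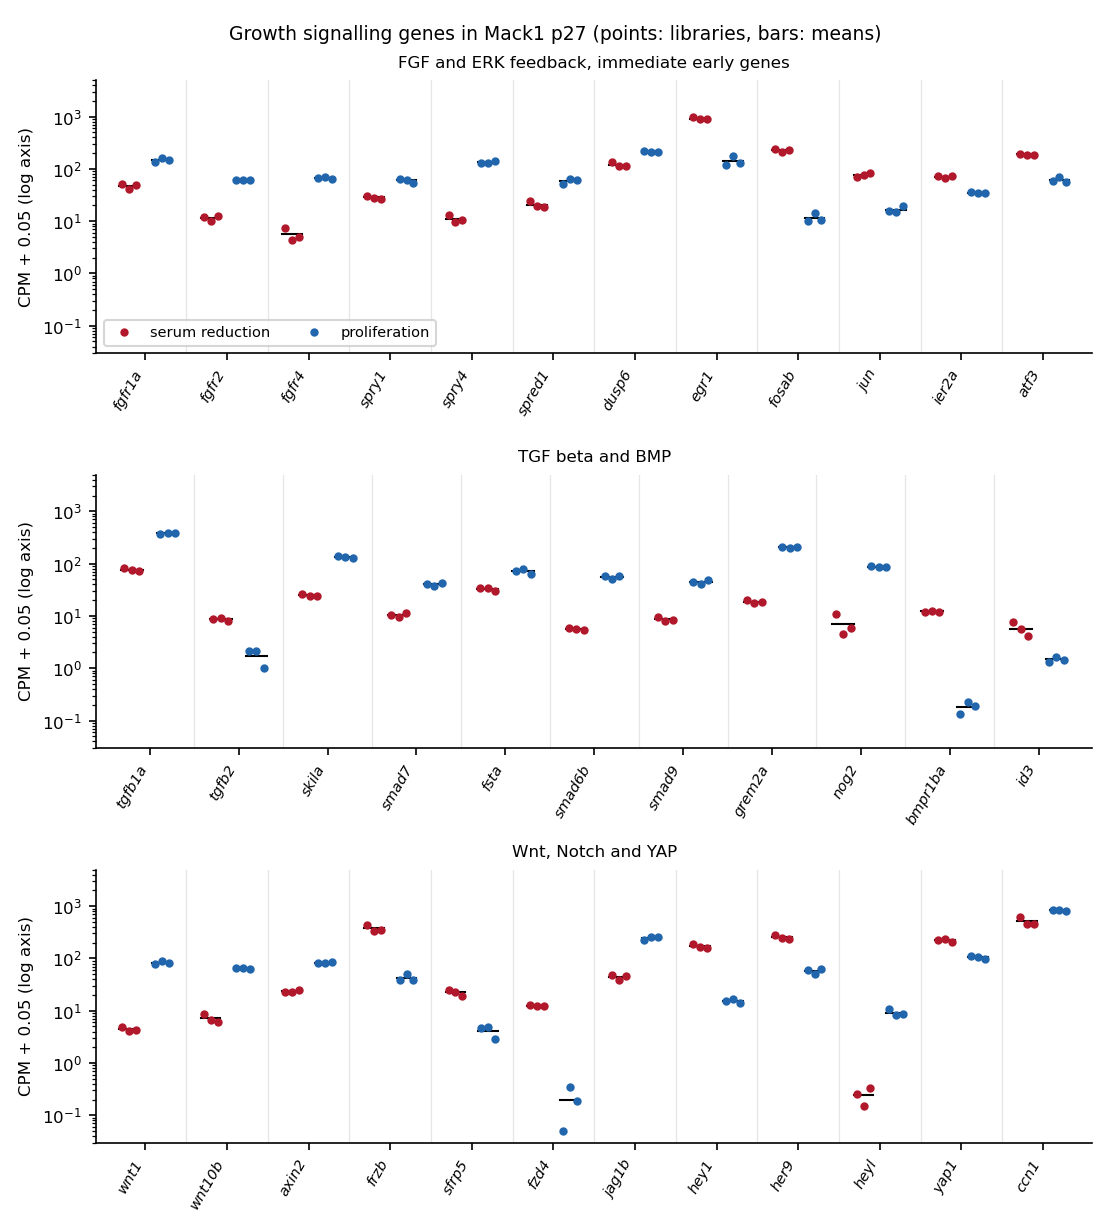
CPM plus 0.05 on a log axis for growth signalling genes in p27 serum reduction (red, left of each pair) and proliferation (blue), 1 point per library and a black bar at the mean. Fgfr1a, fgfr2, fgfr4, the spry and spred genes, dusp6, tgfb1a, skila, wnt1 and wnt10b are lower in serum reduction, and egr1, fosab, jun, frzb, sfrp5, hey1 and yap1 are higher.

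Cell division genes fell nearly without exception. In the replication list 53 of 56 fell and none rose (median -3.10), and in the mitosis list 59 of 61 fell and 1 rose (median -2.57). At an unadjusted p under 0.05 edgeR found 1 replication gene higher, rrm2b, named after its values were seen, and DESeq2 called 1 higher, as did edgeR without serum reduction replicate 1. Summed replication genes held 380.0, 376 and 343 CPM in serum reduction, against 2559.5, 2278 and 2573 CPM in proliferation, and mitosis genes held 1047, 993 and 898 CPM, against 4033, 3688 and 4015 CPM. Mitotic transcripts were thus still present in serum reduction. Mki67, present in cycling cells, was at 47.2, 46.7 and 46.5 CPM in serum reduction, against 217, 207 and 207 CPM in proliferation (log2 fold change -2.17 ± 0.12), while the helicase subunit mcm3 had a log2 fold change of -3.75 ± 0.16. The 1 riser was cdc25b, a phosphatase that activates mitotic kinase, at 152, 138 and 131 CPM in serum reduction, against 115, 105 and 105 CPM in proliferation (log2 fold change 0.37 ± 0.09).

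In the list named for brakes on the cell cycle, 11 of 34 genes rose (32.4%) and 14 fell (41.2%), against 32.4% and 29.3% over all genes. The list also holds genes that drive the cycle, so its counts are not those of brakes alone. The antiproliferative gene tob1b was at 55.3, 62.9 and 69.2 CPM in serum reduction, against 7.68, 4.15 and 5.90 CPM in proliferation (log2 fold change 3.40 ± 0.15). Cdkn1bb, an inhibitor of cyclin-dependent kinases, was at 94.3, 98.8 and 96.6 CPM in serum reduction, against 25.9, 17.4 and 21.3 CPM in proliferation (log2 fold change 2.16 ± 0.12). The retinoblastoma relative rbl2, which holds quiescent cells out of the cycle, rose by 3.39 ± 0.23, and btg1 and ccng1 by 0.98 and 0.95. Cyclin ccnd2a and the kinases cdk4 and cdk2, which carry cells through G1, fell, with log2 fold changes of -2.11 ± 0.12, -1.31 ± 0.07 and -2.68 ± 0.21. Other members that rose or fell are not named here, so the genes named do not show that brakes rose as a class.

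Ribosome assembly and ribosome components behaved differently. Of 52 ribosome biogenesis genes 32 fell and 6 rose, with a median of -0.30. Nucleolar fibrillarin fbl was at 298, 301 and 299.5 CPM in serum reduction, against 596, 526 and 602 CPM in proliferation (log2 fold change -0.94 ± 0.07), and nucleophosmin npm1a at 559.7, 579 and 578 CPM in serum reduction, against 997, 985 and 985 CPM in proliferation (log2 fold change -0.79 ± 0.06). The helicase ddx21 had the largest rise of the list, at 529, 563 and 538 CPM in serum reduction, against 272, 292 and 268 CPM in proliferation (log2 fold change 0.97 ± 0.09). Of 70 cytosolic ribosomal protein genes, 60 were not called, 5 rose and 5 fell. Their summed level was 71004, 72426 and 72024 CPM in serum reduction, against 77414, 67828 and 75121 CPM in proliferation, with overlapping groups. With library totals alone 2 rose and 10 fell, and 2 rose without serum reduction replicate 1 and without proliferation replicate 2 or 3. The stalk protein rplp0 had the largest called change of the list, at 861, 854 and 844 CPM in serum reduction, against 1605, 1483 and 1499 CPM in proliferation (log2 fold change -0.84 ± 0.07).

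Sterol genes did not move together, 13 of 27 rising and 8 falling. Mylipa, a ligase that marks the LDL receptor for degradation, rose by 4.53 ± 0.16. Hmgcra, the rate-limiting enzyme of sterol synthesis, rose by 2.19 ± 0.11, while the later enzyme sqlea was at 2.34, 3.14 and 3.12 CPM in serum reduction, against 25.7, 26.4 and 21.3 CPM in proliferation (log2 fold change -3.09 ± 0.22). The LDL receptor gene ldlrb fell (-1.44 ± 0.11).

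Protein turnover genes rose broadly. In the ubiquitin ligase and autophagy list 38 of 46 rose and 1 fell, with a median of 1.55. Atrogin-1 fbxo32, a muscle ubiquitin ligase, was at 89.1, 98.4 and 95.0 CPM in serum reduction, against 15.1, 18.9 and 16.3 CPM in proliferation (log2 fold change 2.49 ± 0.10), and the autophagy kinase ulk2 at 165, 171 and 179 CPM in serum reduction, against 25.0, 31.6 and 24.9 CPM in proliferation (log2 fold change 2.66 ± 0.09). The lysosomal gene regulator tfeb was at 28.5, 31.9 and 35.8 CPM in serum reduction with no count in proliferation, at least 729-fold higher. The lysosomal membrane gene lamp1b was the 1 member that fell (-0.38 ± 0.07).

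Heat shock genes rose in 19 of 31 cases and fell in 9. The inducible chaperone hspa1b was at 208, 251 and 306 CPM in serum reduction, against 0.343, 0.480 and 0.545 CPM in proliferation (log2 fold change 9.12 ± 0.25), and the co-chaperone bag3, which clears damaged Z-disc protein in mammals, at 405, 462 and 537 CPM in serum reduction, against 67.3, 66.3 and 64.5 CPM in proliferation (log2 fold change 2.82 ± 0.13). The endoplasmic reticulum chaperone hspa5 and the collagen chaperone serpinh1a fell (-0.60 ± 0.08 and -1.47 ± 0.07). In the ATF4 and amino acid list 15 of 24 rose and 6 fell. Trib3, a target of the stress response, was at 312, 322 and 317 CPM in serum reduction, against 61.2, 75.4 and 67.8 CPM in proliferation (log2 fold change 2.22 ± 0.11), while serine and proline synthesis genes psph, phgdh and pycr1b fell (-1.34, -0.86 and -1.05). Of 25 clock genes 17 rose and clocka fell (-1.33 ± 0.20). The output factors tefb and dbpa rose by 3.30 ± 0.18 and 2.92 ± 0.27, and per1b, a repressor in the clock, by 2.60 ± 0.30.

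Most collagen genes rose, and aggrecan, a fibulin and a plasminogen activator were among the matrix genes that fell. Of 23 collagen genes 18 rose and 2 fell, or 1 without proliferation replicate 1 (median 1.64), and the list held 29726, 25166 and 24724 CPM in serum reduction, against 8865, 9361 and 8608 CPM in proliferation. Col1a1a, a chain of type I collagen, was at 8356, 7062 and 6949 CPM in serum reduction, against 2161, 2236 and 2068 CPM in proliferation (log2 fold change 1.79 ± 0.11), and col1a1b at 5091, 4337 and 4294 CPM in serum reduction, against 728, 776 and 717 CPM in proliferation (log2 fold change 2.63 ± 0.10). In contrast to the sarcomere genes, serum reduction replicate 1 was the highest for these chains. The basement membrane chains col4a1 and col4a2, neighbours in the RefSeq gene order, were near 0 in proliferation. Col4a2 was at 29.0, 29.0 and 19.1 CPM in serum reduction, against 0.386, 0 and 0.227 CPM in proliferation (log2 fold change 6.93 ± 0.30). Col12a1a, found around fibrils, fell (-0.63 ± 0.11) while its duplicate col12a1b rose by 0.73 ± 0.16.

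Among matrix glycoproteins and proteoglycans 32 of 55 rose and 12 fell (median 1.48). Thrombospondin thbs2a was at 409, 326 and 316 CPM in serum reduction, against 2.92, 2.97 and 2.18 CPM in proliferation (log2 fold change 7.02 ± 0.17), and thbs4b moved the other way, at 147, 138 and 131 CPM in serum reduction, against 519, 524 and 524 CPM in proliferation (log2 fold change -1.91 ± 0.09). The laminin chain lama2 and elastin elna rose by 4.30 ± 0.15 and 4.72 ± 0.14, and the small leucine-rich proteoglycans ogna and prelp by 3.88 ± 0.15 and 3.90 ± 0.17. The large proteoglycan aggrecan acanb was at 8.50, 4.15 and 5.34 CPM in serum reduction, against 152, 171 and 149 CPM in proliferation (log2 fold change -4.71 ± 0.23), and the fibulin fbln1 had a log2 fold change of -2.43 ± 0.09. Of 30 proteases and inhibitors 14 rose and 7 fell. Mmp2 was at 1044, 866 and 812 CPM in serum reduction, against 341, 331 and 330.1 CPM in proliferation (log2 fold change 1.44 ± 0.09), while the plasminogen activator plat fell (-2.18 ± 0.11).

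Of the markers of blood cells, an integrin and an oxidase subunit were measured well above 0 in proliferation and fell. The integrin itgb2, a leukocyte marker in mammals, was at 77.7, 66.1 and 68.9 CPM in serum reduction, against 731, 779 and 725 CPM in proliferation (log2 fold change -3.39 ± 0.09), and ncf4, a subunit of the phagocyte oxidase, at 2.13, 0.817 and 2.40 CPM in serum reduction, against 57.4, 54.0 and 61.7 CPM in proliferation (log2 fold change -5.02 ± 0.39). The summed macrophage and leukocyte list was 90.4, 75.3 and 79.4 CPM in serum reduction, against 800.3, 849 and 800.3 CPM in proliferation. Most of this sum was itgb2 in every library, so it does not speak for the other members. The median log2 fold change of the tested members was 0.77, opposite in sign to the change in the sum. Of its 20 genes, 8 were tested, none rose and 3 fell, the third being the receptor csf1ra (-0.98 ± 0.23). At an unadjusted p under 0.05 edgeR found 0 higher, and DESeq2 called 0 higher, while 1 and 2 were called higher without proliferation replicates 2 and 3. Its defining genes ptprc, lcp1, spi1a, spi1b and coro1a, the last 3 with no count, were at no more than 0.175 CPM in any of the 6 libraries. The endothelial list held 11.7, 7.15 and 12.1 CPM in serum reduction, against 42.2, 36.3 and 32.9 CPM in proliferation. Of its 25 genes 12 were tested, 2 rose, 3 fell and 7 were not called (median 0.05). Those that fell were fli1, tie1 and kdrl (-3.29 ± 0.25, -2.74 ± 0.27 and -4.59 ± 0.80). Those that rose were sox17 (1.45 ± 0.53), whose call was lost without serum reduction replicate 1 or proliferation replicate 3, and vwf. Vwf was at 0.944, 0.686 and 2.65 CPM in serum reduction, against 0.0429, 0 and 0 CPM in proliferation, from 1 count in proliferation. The junction genes cdh5, pecam1a and pecam1b were at no more than 0.430 CPM. The marker genes that were called moved at the same time as the muscle and growth lists, and their part in those results was not tested.

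Fibroblast and mesenchyme markers rose in 6 of 16 cases and fell in 6, and summed to 275, 219 and 214 CPM in serum reduction, against 404, 409 and 395 CPM in proliferation. The growth factor receptor pdgfra was at 0.979, 1.11 and 0.430 CPM in serum reduction, against 18.0, 16.9 and 19.4 CPM in proliferation (log2 fold change -4.41 ± 0.23), and the mesenchymal factors prrx1b and twist2 fell (-1.85 ± 0.17 and -2.23 ± 0.25). The stromal marker cd248b rose by 4.86 ± 0.44. Smooth muscle and myofibroblast genes fell in 10 of 18 cases and rose in 5, and summed to 3335, 2853 and 2935 CPM, against 6797, 6741 and 6598 CPM. The list shares cnn2, tpm4a, smtnb and tagln with the cytoskeleton described above. Fat cell genes rose in 9 of 23 cases and fell in 5, with the lipid droplet gene plin3 at 73.3, 90.0 and 97.1 CPM in serum reduction, against 16.8, 18.4 and 14.2 CPM in proliferation (log2 fold change 2.40 ± 0.13). Tendon genes rose in 3 of 10 cases and fell in 4, and cartilage and bone genes rose in 4 of 9 and fell in 2. Few pigment, neuron, epithelial or red blood cell genes were tested, with 6, 5, 7 and 2, of which 1, 2, 3 and 1 rose and 2, 1, 0 and 0 fell. The pigment counts lay between 0 and 2 with 1 library left out. In the epithelial and red blood cell lists, 0 were lower at an unadjusted p under 0.05 in edgeR and DESeq2 called 0 lower. The desmosome gene dspa, counted as epithelial here and also known from heart muscle, was at 109.7, 105 and 118 CPM in serum reduction, against 21.6, 27.3 and 20.5 CPM in proliferation (log2 fold change 2.26 ± 0.12).

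Beyond the lists, the genes with the most extreme folds included several with no count in proliferation. Camk2a, a calcium-dependent kinase, was at 16.9, 25.2 and 27.2 CPM in serum reduction and 0 in proliferation, at least 526-fold higher, and the membrane protein gene bves at 10.0, 15.4 and 18.2 CPM and 0, at least 331-fold higher. Among the deepest falls, the chromatin protein hmga1a was at 5.39, 6.50 and 7.09 CPM in serum reduction, against 221, 165 and 219.6 CPM in proliferation (log2 fold change -4.99 ± 0.20), and entpd1, an enzyme that breaks down extracellular ATP, at 0.140, 0.392 and 0.466 CPM in serum reduction, against 7.47, 8.81 and 7.54 CPM in proliferation (log2 fold change -4.56 ± 0.51). The transport adaptor bicdl1 had a log2 fold change of -5.73 ± 0.47. Each of these 3 was low in all 3 serum reduction libraries. Of the 15 largest gains in mean CPM, 6 were genes with a locus number alone, and these 15 made up 28.8% of all gains in CPM. Among the largest losses was the transferrin receptor tfr1b, which takes up iron, at 309.9, 319 and 337 CPM in serum reduction, against 1674, 1864 and 1680.2 CPM in proliferation (log2 fold change -2.43 ± 0.08).

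Set against serum starvation, in which feeding stopped, serum reduction had 3126 genes higher (19.9%) and 2814 lower (17.9%). Against that background, 65 of 70 ribosomal protein genes and 48 of 52 biogenesis genes were lower in serum reduction than in starvation, and none was higher. At an unadjusted p under 0.05, 0 ribosomal protein and 0 biogenesis genes were higher in edgeR, and DESeq2 called 0 and 0 higher. Rplp0 was at 861, 854 and 844 CPM in serum reduction, against 1449.6, 1611 and 1458 CPM in starvation (log2 difference -0.82 ± 0.07). Replication genes were lower in 42 of 56 cases, and mcm5 was at 4.58, 3.72 and 2.44 CPM, against 13.7, 15.5 and 16.2 CPM (log2 difference -2.08 ± 0.18). Matrix went the other way, with 14 of 23 collagens higher and 6 lower. Col1a1a was at 8356, 7062 and 6949 CPM in serum reduction, against 1610.3, 1440.1 and 1627 CPM in starvation (log2 difference 2.26 ± 0.11). Among the most extreme genes, the surface marker cd34 was at 26.3, 21.9 and 29.4 CPM, against 0.180, 1.01 and 0.255 CPM, and the phosphatase alpl at 0.979, 1.54 and 1.22 CPM, against 35.9, 29.9 and 32.4 CPM. Myog was lower in serum reduction than in starvation (log2 difference -1.01 ± 0.17), and unc45b was higher (1.37 ± 0.11).

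Set against lipid loading, serum reduction had 4338 genes higher (27.7%) and 4307 lower (27.5%). Ribosomal protein genes were higher in 60 of 70 cases and lower in none, and respiratory chain genes higher in 37 of 45 and lower in none. At an unadjusted p under 0.05, 0 ribosomal protein and 0 respiratory genes were lower in edgeR, and DESeq2 called 0 and 0 lower. Sterol genes were lower in 20 of 27 cases, with sqlea at 2.34, 3.14 and 3.12 CPM in serum reduction, against 100.1, 92.7 and 95.7 CPM in lipid loading (log2 difference -5.07 ± 0.23). The genes of largest difference included carbonic anhydrase ca6, at 2.52, 3.59 and 3.83 CPM in serum reduction, against 266, 269.6 and 244 CPM in lipid loading. Muscle lists differed among themselves: thin filament genes were higher in 21 of 28 cases and lower in 5, and cell fusion genes higher in 8 of 19 and lower in 9. The cofactors were higher in 11 of 30 cases and lower in 10. Myog was at 200.0, 211 and 204 CPM in serum reduction, against 33.5, 28.9 and 33.2 CPM in lipid loading (log2 difference 2.69 ± 0.18), while myod1 and myf5 were lower, with log2 differences of -0.47 and -3.56.

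**Figure D5:**
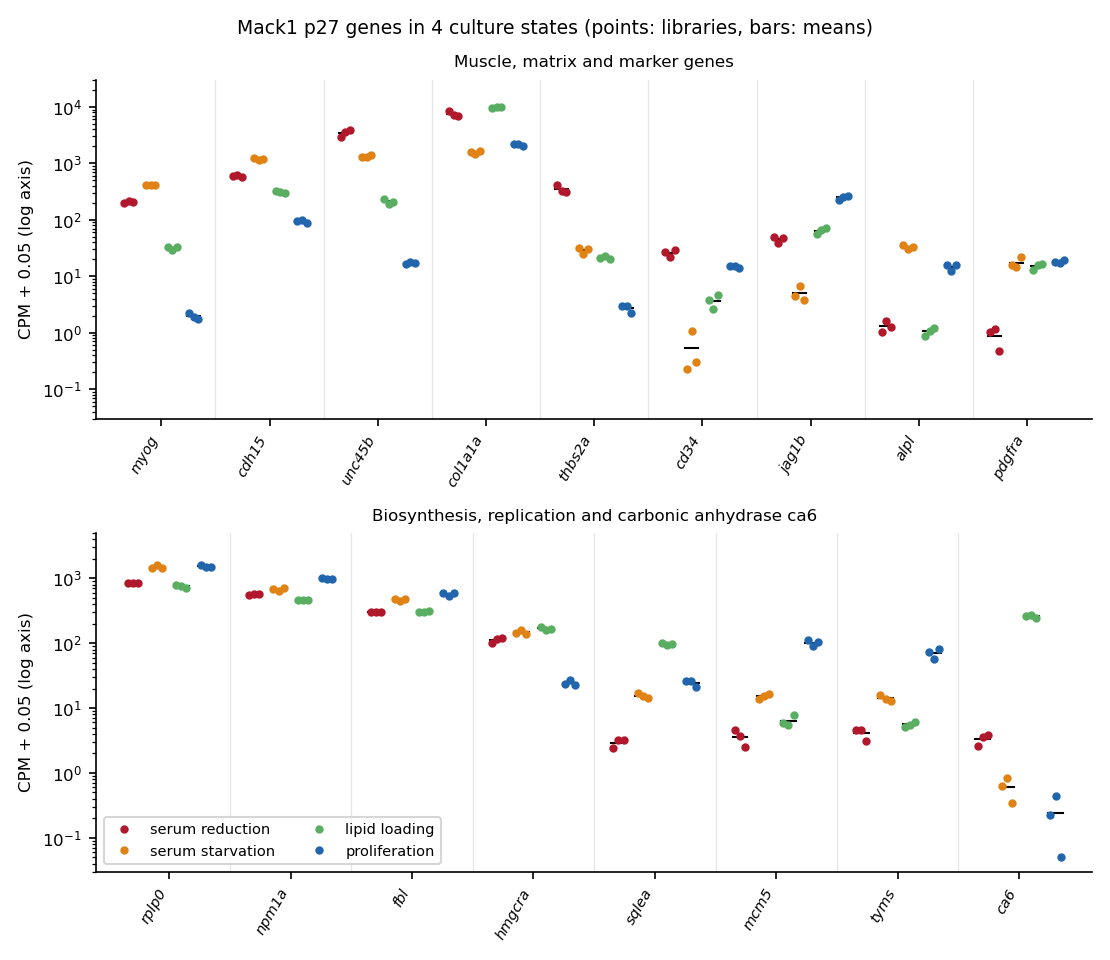
CPM plus 0.05 on a log axis for genes of Mack1 p27 in serum reduction, serum starvation, lipid loading and proliferation, left to right for each gene, 1 point per library and a black bar at the mean. Rplp0, npm1a and fbl are lower in serum reduction than in starvation, alpl is lower in serum reduction than in starvation and proliferation, and ca6 stands highest in lipid loading.

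The response at p77, after immortalization, was compared with that at p27 by the difference of the log2 fold changes, p77 minus p27. It differed in 3555 genes (22.7%), 1809 upward (11.5%) and 1746 downward (11.1%). Thin filament genes had a more positive difference in 17 of 28 cases and ribosome biogenesis genes in 39 of 52. Myog at p77 was at 225, 236 and 233 CPM in serum reduction, against 0.251, 0.0754 and 0.170 CPM in proliferation, which gave a difference of 3.68 ± 0.57. The serum reduction values of the stages were close, and proliferation was lower at p77. The biogenesis gene nop2, lower in serum reduction at p27, was at 117, 121 and 122 CPM in p77 serum reduction, against 122, 116 and 118 CPM in p77 proliferation (difference 0.69 ± 0.11). Lpla, which rose at p27, was at 432, 475 and 415 CPM in p77 serum reduction, against 233, 223 and 227 CPM in p77 proliferation (difference -3.64 ± 0.16). Wnt1 and smad9 fell further at p77 (differences -2.71 ± 0.33 and -3.58 ± 0.41), and sfrp5, which rose at p27, was at 9.54, 11.3 and 11.1 CPM, against 19.5, 15.2 and 17.3 CPM at p77 (difference -3.16 ± 0.34). The stage comparison uses all 6 libraries of the results above, and the starvation and lipid comparisons reuse the 3 of serum reduction, so the comparisons are not independent of one another.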

How the data were processed

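Gene counts of 24 Mack1 libraries were taken from the count table the authors deposited, made with tools that the submitters' processing notes name, with no role given, as STAR, Salmon 1.10.1, FastQC and DESeq2. Build and annotation were not given in the sources used here. A normalized table of the authors, deposited as counts divided by a size factor per library (a normalized signal), served in 1 alternative only. Gene symbols came from the RefSeq table of assembly fScoSco1.1, which matched all 24189 gene IDs. Genes were filtered with filterByExpr, leaving 15683, library totals were scaled by TMM, and edgeR 4.0.16 (R 4.3.3) fitted 1 model over 8 groups with the quasi-likelihood test, two-sided, with Benjamini-Hochberg adjustment over all tested genes. The common biological coefficient of variation was 0.137. Replicates of a group differed by more than sampling noise (chi-square per degree of freedom 5.76 to 27.1). Alternatives were DESeq2 1.42.0, limma 3.58.1 (log2 of the authors' normalized signal plus 1), RLE size factors, library totals alone, other filters, the compared groups alone, a replicate block and leaving out each library. A count of 0 allows a floor of 3 counts, and intervals cover counting error only. The 51 gene lists and all members were chosen with earlier results of these data known. Genes are named by rule: all tested members of a list of up to 15, otherwise the 8 with the smallest p and up to 4 called against the majority, the 12 highest and 12 lowest folds among genes of at least 5 CPM with a symbol and separate groups, the 15 largest changes in mean CPM each way, and 8 each way in the other comparisons. Some genes that these rules pick are not reported here.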

Additional observations from a re-analysis of the deposited data

Results flagged for a closer look

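The response to serum reduction at p77, after immortalization, was tested against that at p27 as a contrast of the fitted group means. In edgeR's quasi-likelihood test 1809 genes differed upward and 1746 downward (p77 minus p27). Myog had the larger response at p77, with a log2 difference of 3.68 ± 0.57 (adjusted p = 1.95e-05); its levels were 225, 236 and 233 CPM in p77 serum reduction, against 0.251, 0.0754 and 0.170 CPM in p77 proliferation, and 200.0, 211 and 204 CPM in p27 serum reduction, against 2.15, 1.83 and 1.68 CPM in p27 proliferation. The ribosome biogenesis gene nop2 differed by 0.69 ± 0.11 (adjusted p = 1.82e-05), being lower in serum reduction at p27, at 82.3, 98.2 and 87.0 CPM, against 140.2, 146 and 140.2 CPM in p27 proliferation.

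Lipoprotein lipase lpla differed by -3.64 ± 0.16 (adjusted p = 4.95e-15), and its proliferation level was 233, 223 and 227 CPM at p77 and 15.5, 25.3 and 17.7 CPM at p27. Wnt1 differed by -2.71 ± 0.33 (adjusted p = 6.7e-07), smad9 by -3.58 ± 0.41 (adjusted p = 2.15e-07) and the Wnt antagonist sfrp5 by -3.16 ± 0.34 (adjusted p = 7.15e-08), all by the same edgeR test with 3 libraries in each group.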

How the results depend on the processing

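Between serum reduction and proliferation, 4743 to 4866 genes were higher and 4235 to 4376 lower with 1 of the 6 libraries left out, against 5085 and 4589 with all, and 4650 to 5378 and 4313 to 5041 under the other settings. At least 2-fold, 2925 to 3004 were higher and 1948 to 2092 lower with 1 library left out. No gene called in both had the opposite sign in any of the 14 settings. Of 225 called genes named by rule from this comparison 221 stayed called in all 14, and mef2d, ppargc1b, myf5 and sox17 did not. Other scalings moved the median log2 fold change of all genes by at most 0.069. With library totals alone the stage comparison had 1183 genes upward and 2575 downward, rather than 1809 and 1746. That setting gave 4687 higher and 5041 lower against proliferation, 2604 and 3690 against starvation, and 3648 and 5258 against lipid loading. Which direction held the majority of calls thus depended on the scaling in each comparison, and the cause was not tested. Leaving out 1 library gave 1538 to 1709 genes upward and 1434 to 1672 downward in the stage comparison. It gave 2702 to 2838 higher and 2255 to 2424 lower against starvation, and 4009 to 4135 higher and 3725 to 4018 lower against lipid loading. No pairing of the libraries by replicate number was seen. Deviations of same-numbered libraries over all tested genes correlated at 0.000998, 0.00318 and -0.00634, and a weak pairing could be missed. With the replicate as a block 9570 genes were called, of which 9522 were among the 9674 called without it. Genes with a few counts in a group are limited by depth, since 1 count is worth less than 0.05 CPM.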

Other observations

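Large rises formed more runs of neighbours in the RefSeq gene order than large falls did, as a plain count. The counts are not adjusted for the larger number of rises. They therefore do not show whether rises lay together more often than falls for their number. Runs of at least 4 neighbouring tested genes, all called and changed at least 4-fold the same way, numbered 25 upward and 1 downward, while 1978 genes in all were at least 4-fold higher and 786 at least 4-fold lower. The upward runs held 114 genes, 61 of them with a locus number alone, and the longest had 7 genes. The downward run held slx4ip, jag1b, sptlc3 and ism1. These runs were looked for after the values were seen, the chromosome order is that of the RefSeq assembly, and no test was made.

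Genes with a locus number alone in that table, 9691 of 24189, are outside every gene list. Of 4685 such genes tested, 22.2% were at least 2-fold higher and 11.8% at least 2-fold lower in serum reduction, beside 18.0% and 13.5% of the 10998 tested genes with a symbol. LOC134002507 had the largest gain in mean CPM of all genes (12658 CPM) and stands in the same upward run as LOC134002623, another of the 15 largest gains (3409.9 CPM).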
